A study of Mus musculus with 19 samples.

Results

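The claudins and connexins described here were 10 junction genes of the 49089 genes in the deposited counts, namely the 7 claudins Cldn1, Cldn3, Cldn4, Cldn5, Cldn7, Cldn10 and Cldn23 and the 3 connexins Gja1, Gja4 and Gjb2. They were matched to the gene IDs of the counts through mouse GRCm38 gene symbols. All 10 were among the 17222 genes with at least 3 CPM (counts scaled to a library of fixed size, with TMM factors) in at least 3 of the 19 libraries, which were the genes tested.

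Endometrium scraped free of myometrium was taken from wild-type C57Bl/6 females. The study methods state an age of 8 to 14 weeks for the mated females. Each of the 19 RNA-seq libraries was a pooled sample, with the number of animals in a pool not given in the sources used here. The estrus group (CONT, 3 libraries numbered 1, 2 and 4) came from unmated, untreated females around ovulation. The INT group (4 libraries) came from females mated with intact BALB/c males and collected at day 3.5 pc (post coitum), around the acquisition of receptivity. A further 3 groups of 4 libraries, with columns named SVX, SVX_VAS and VAS, came from females collected at the same day whose BALB/c mates had been operated on. For these 3 groups the column names and the titles name different surgeries (SVX columns are titled vasectomised, SVX_VAS columns seminal vesicle-deficient, and VAS columns both), so they are called by their column names and no surgery is assigned.

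Libraries held 12661266 to 31781270 counts on genes, so that the 3 counts which a count of 0 allows correspond to 0.107 to 0.234 CPM (counting error only). VAS libraries 2 and 3 stood apart from the other 17, with 544 to 545 CPM of Malat1, a nuclear RNA, against 8210 to 13963 CPM, and 528 to 540 CPM of the collagen Col3a1 against 1626 to 3692 CPM, so values for VAS are also given without them where stated. Markers of epithelium, stroma and endothelium were present in every library, with Epcam at 64.4 to 675 CPM, Pdgfra at 169 to 778 CPM and Pecam1 at 40.9 to 235 CPM. Markers of smooth muscle were present too (Myh11 at 59.6 to 436 CPM). The summed level of the 10 epithelium markers was 4999 to 6656 CPM at estrus and 753 to 3090 CPM in INT, with 9 of the 10 called lower, while 9 of 10 endothelium markers and 7 of 10 stroma markers were called higher. In bulk tissue, fewer cells of a type and less RNA per cell cannot be told apart, and p-values measure only the spread between pooled samples.

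Claudins are membrane proteins that form the strands of tight junctions, which seal the space between neighbouring epithelial or endothelial cells and set which ions and solutes can pass. Connexins assemble into gap junction channels, through which ions and small molecules move directly from cell to cell. In the uterus the luminal epithelium is sealed by claudins, stromal cells are coupled through the connexin encoded by Gja1 as they decidualise, and epithelial gap junctions of the Gjb2 product are known to respond to ovarian steroids and to the embryo.

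Between estrus and day 3.5 pc after intact mating, 4 of the 10 genes rose (Gja4, Cldn5, Cldn1 and Gja1) and 2 fell (Cldn7 and Cldn23). The other 4 (Cldn3, Cldn4, Cldn10 and Gjb2) were not called. A call means a false discovery rate (FDR) of 0.05 or less over all 17222 genes and a change of at least 1.5-fold. The same rule called 20.9% of all genes higher and 12.7% lower, 33.6% in all. Libraries of the groups did not overlap for 7 of the 10 genes, against 62.3% of all genes. The median log2 fold change was -0.08 over the 10 genes and -0.01 over all genes tested. The plot of values by library gives the 5 groups of each gene side by side.

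**Figure D1:**
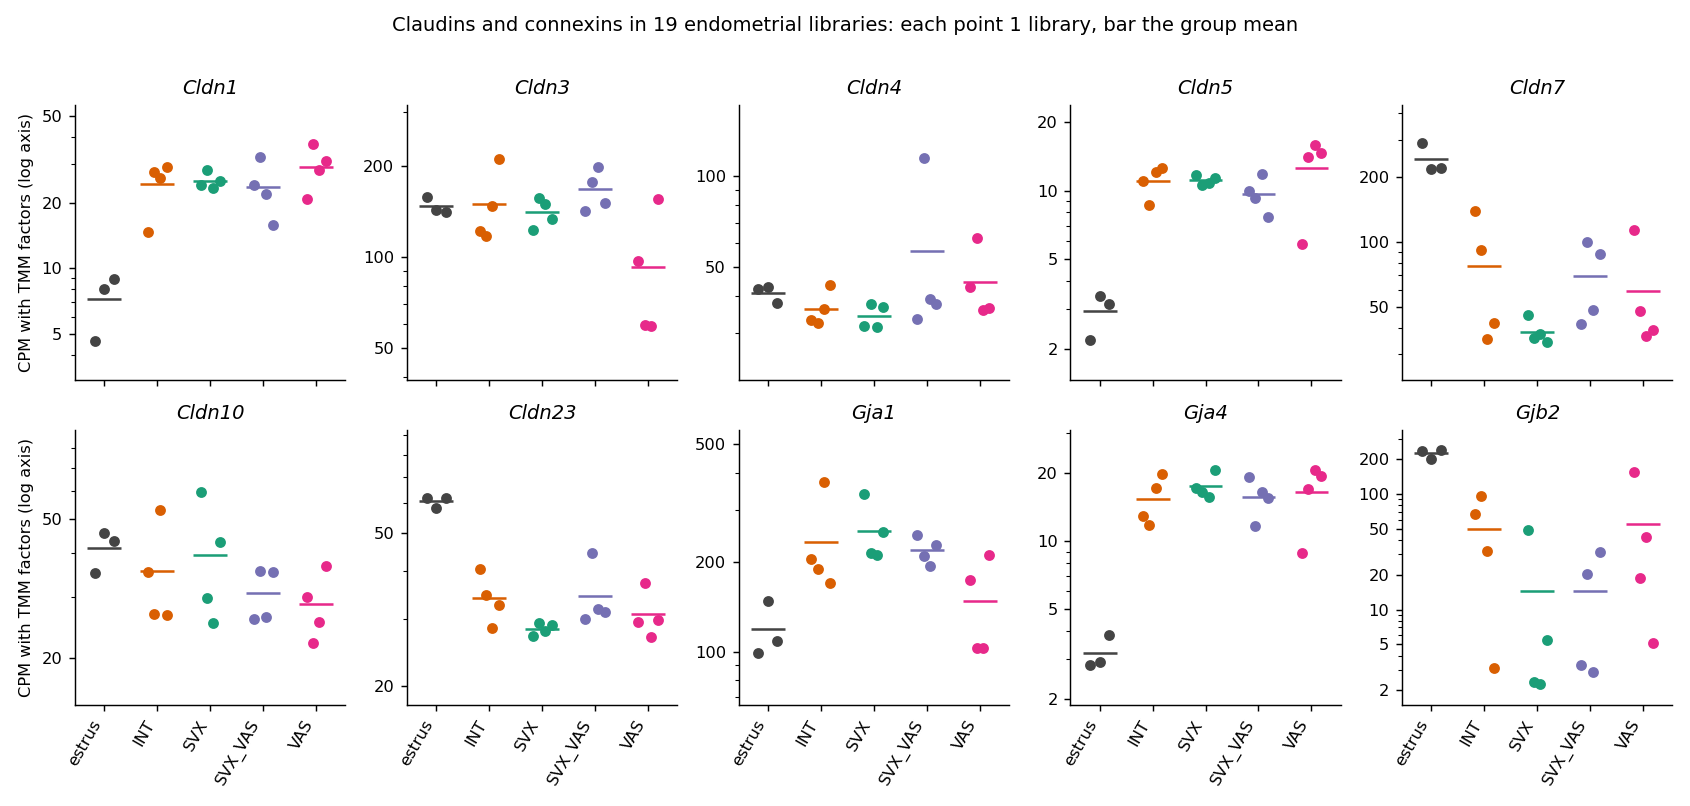
CPM with TMM factors (log axis) of the 10 genes in each library of the 5 groups, with points for libraries and bars for group means. Cldn1, Cldn5 and Gja4 lie higher in all 4 mated groups than at estrus, Cldn7 and Cldn23 lie lower, and Gjb2 spreads from 2.25 to 155 CPM among mated libraries.

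Cldn7, a claudin of epithelial lateral membranes, and Cldn23, a claudin of epithelia, were the 2 genes that fell. Cldn7 (ENSMUSG00000018569.12, chr11:69964779-69967885, plus strand, GRCm38) was at 289, 219 and 221 CPM in estrus libraries 1, 2 and 4 and at 139, 91.4, 35.5 and 41.8 CPM in INT libraries 1 to 4. INT libraries 1 and 2 lay between estrus and INT libraries 3 and 4, and the groups did not overlap. The mean fell from 243 ± 39.9 (SD, n = 3) to 77.0 ± 48.4 CPM (SD, n = 4), a log2 fold change of -1.66 (standard error 0.46, edgeR FDR 0.00733). Cldn23 (ENSMUSG00000055976.6, chr8:35824712-35826559, minus strand) was at 61.8, 58.1 and 61.7 CPM at estrus and at 40.4, 34.6, 28.3 and 32.6 CPM in INT, with no overlap. Its log2 fold change was -0.83 (standard error 0.14, edgeR FDR 0.000156), a smaller change than that of Cldn7 with a smaller error. With glmTreat at 1.5-fold Cldn23 was not called (FDR 0.0620), while Cldn7 was.

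Cldn3 and Cldn4, a pair of single-exon epithelial claudins that are also receptors of a clostridial toxin, did not move with Cldn7. They lie on chromosome 5 with 39279 bases and 0 annotated genes between them (Cldn3, ENSMUSG00000070473.4, chr5:134986214-134987472, plus strand; Cldn4, ENSMUSG00000047501.3, chr5:134945119-134946934, minus strand). Cldn3 was at 158, 143 and 141 CPM at estrus and at 121, 117, 147 and 211 CPM in INT, so that INT libraries lay on both sides of the estrus values. Its log2 fold change was 0.02, with a 95% confidence interval of -0.58 to 0.61. Cldn4 was at 42.3, 42.9 and 37.7 CPM at estrus and at 33.1, 32.5, 36.0 and 43.4 CPM in INT (log2 fold change -0.18, 95% confidence interval -0.88 to 0.53). Exons of Cldn3 overlap those of the antisense gene Wbscr25, whose counts were 0.952% to 4.17% of those of Cldn3 in the 19 libraries. Whether counting used strand is not given in the sources used here.

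The promoters of these neighbours are shown because both genes were not called while Cldn7 fell. Each window holds 300 bases around the start site, most of them upstream (RefSeq, GRCm38.p6; chr5:134985964-134986263, plus strand, for Cldn3 and chr5:134946885-134947184, minus strand, for Cldn4), printed 5′ to 3′ with motif matches in capitals.
Cldn3: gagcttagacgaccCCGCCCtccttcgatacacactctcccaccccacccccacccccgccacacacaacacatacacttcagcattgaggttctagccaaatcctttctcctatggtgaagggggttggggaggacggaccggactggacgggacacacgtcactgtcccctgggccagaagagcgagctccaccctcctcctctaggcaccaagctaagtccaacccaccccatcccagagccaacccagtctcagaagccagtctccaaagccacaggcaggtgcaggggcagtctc
Cldn4: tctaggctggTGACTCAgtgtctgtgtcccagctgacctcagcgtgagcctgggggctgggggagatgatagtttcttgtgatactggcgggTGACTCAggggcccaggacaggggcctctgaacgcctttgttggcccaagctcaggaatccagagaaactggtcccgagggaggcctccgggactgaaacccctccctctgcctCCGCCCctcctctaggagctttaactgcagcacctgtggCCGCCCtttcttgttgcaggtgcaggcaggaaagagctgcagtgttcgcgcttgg
The capitals mark GC boxes (GGGCGG on either strand, 1 in Cldn3 and 2 in Cldn4) and the AP-1 motif (TGANTCA, 2 in Cldn4). Of 32851 promoter windows of the same length, 35.7% held a GC box and 7.81% an AP-1 motif. The motifs searched did not overlap one another in these windows. The GC content of the windows was 60.7% and 61.0%, against a median of 52.7% over all promoter windows.

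Cldn1, a sealing claudin of epithelial barriers, rose, and Cldn10, a claudin that forms ion-selective paracellular channels, was not called. Cldn1 (ENSMUSG00000022512.2, chr16:26356642-26371841, minus strand) was at 4.61, 7.99 and 8.96 CPM at estrus and at 14.7, 27.8, 26.0 and 29.1 CPM in INT, where library 1 was the lowest and still above every estrus library. The change was 3.40-fold (log2 fold change 1.76, standard error 0.29, edgeR FDR 0.000147). Cldn10 (ENSMUSG00000022132.15, chr14:118787908-118875489, plus strand) was at 35.1, 45.7 and 43.4 CPM at estrus and at 35.2, 26.8, 53.2 and 26.6 CPM in INT. The groups overlapped, and the log2 fold change was -0.22 (95% confidence interval -0.83 to 0.38).

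The endothelial pair rose. Cldn5 forms the tight junctions of blood vessel endothelium and Gja4 encodes a gap junction protein of arterial endothelium. Gja4 (ENSMUSG00000050234.7, chr4:127311421-127314039, minus strand) was at 2.84, 2.92 and 3.84 CPM at estrus and at 12.9, 11.8, 17.2 and 19.8 CPM in INT, and the groups did not overlap. It had the largest change among the 6 genes called, 4.82-fold (log2 fold change 2.27, standard error 0.28, edgeR FDR 1.27e-05). Cldn5 (ENSMUSG00000041378.1, chr16:18776847-18778260, plus strand, single exon) was at 2.19, 3.42 and 3.16 CPM at estrus and at 10.97, 8.64, 12.1 and 12.5 CPM in INT. Its change was 3.77-fold (log2 fold change 1.91, standard error 0.28, edgeR FDR 6.22e-05). The summed level of the 10 endothelium markers moved with both genes, from 349 to 437 CPM at estrus to 938 to 1415 CPM in INT. Of these markers Sox17 had the highest CPM at estrus (127 ± 16.3, SD, n = 3). It was the marker not called in INT (log2 fold change 0.54, edgeR FDR 0.0577), and which cells held it was not tested.

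The promoters of Cldn5 (chr16:18776597-18776896, plus strand) and Gja4 (chr4:127313990-127314289, minus strand) are shown because these genes rose together (RefSeq, GRCm38.p6, 5′ to 3′).
Cldn5: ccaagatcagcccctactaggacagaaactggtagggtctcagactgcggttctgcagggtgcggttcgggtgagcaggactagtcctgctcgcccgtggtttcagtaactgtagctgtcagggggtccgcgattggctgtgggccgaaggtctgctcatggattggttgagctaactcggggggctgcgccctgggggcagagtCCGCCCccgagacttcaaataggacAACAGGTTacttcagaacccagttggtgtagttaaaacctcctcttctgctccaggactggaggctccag
Gja4: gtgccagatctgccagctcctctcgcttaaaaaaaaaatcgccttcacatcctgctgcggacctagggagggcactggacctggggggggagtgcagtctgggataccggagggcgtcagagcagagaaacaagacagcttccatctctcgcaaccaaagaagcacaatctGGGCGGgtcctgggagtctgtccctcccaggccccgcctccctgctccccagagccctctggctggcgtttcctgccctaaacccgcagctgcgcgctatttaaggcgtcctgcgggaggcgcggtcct
The capitals mark 1 GC box in each and, in Cldn5, a match of the GRHL motif (AACCNGTT on either strand), which 2.09% of all promoter windows held. A GC box was found in 8 of the 11 windows listed for the members, and a GRHL motif in 1 of the 11. No window of a member held the TATA motif (TATAAA, 13.6% of all windows) or the palindromic estrogen response element (GGTCA and TGACC with any 3 bases between them, 23 of 32851 windows). RefSeq listed 2 windows each for Cldn7 and Cldn10. Cldn23 had no entry.

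Gja1, the main gap junction gene of endometrial stroma and of smooth muscle, rose less and with more spread. Gja1 (ENSMUSG00000050953.9, chr10:56377300-56390419, plus strand) was at 99.2, 148 and 109 CPM at estrus and at 205, 190, 372 and 171 CPM in INT. INT library 3 was the highest of all 19 libraries, and no INT library was as low as any estrus library. The change was 1.98-fold (log2 fold change 0.98, standard error 0.30, edgeR FDR 0.0122). Without INT library 3 the log2 fold change was 0.64 (edgeR FDR 0.0564) and without estrus library 1 it was 0.87 (edgeR FDR 0.0606), so the call rested on these libraries. Summed stroma markers were 4977 to 5201 CPM at estrus and 7259 to 8721 CPM in INT.

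Gjb2, an epithelial connexin, differed more between libraries than any other gene of the 10. Gjb2 (ENSMUSG00000046352.7, chr14:57098600-57104702, minus strand) was at 237, 202 and 237 CPM at estrus and at 66.6, 96.2, 32.4 and 3.13 CPM in INT. Every INT library was below every estrus library, and INT libraries differed widely among themselves, with library 4 the lowest. The log2 fold change was -2.18 with a standard error of 1.21 (95% confidence interval -4.75 to 0.38), and Gjb2 was not called by edgeR (FDR 0.151). With limma-voom it was called (log2 fold change -2.98, FDR 0.0386). Leaving out single libraries gave log2 fold changes between -2.73 and -1.79.

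The promoter of Gjb2 (chr14:57104653-57104952, minus strand, RefSeq, GRCm38.p6, 5′ to 3′) is shown because its level spread most among the 10 genes, and its capitals mark 2 GC boxes.
Gjb2: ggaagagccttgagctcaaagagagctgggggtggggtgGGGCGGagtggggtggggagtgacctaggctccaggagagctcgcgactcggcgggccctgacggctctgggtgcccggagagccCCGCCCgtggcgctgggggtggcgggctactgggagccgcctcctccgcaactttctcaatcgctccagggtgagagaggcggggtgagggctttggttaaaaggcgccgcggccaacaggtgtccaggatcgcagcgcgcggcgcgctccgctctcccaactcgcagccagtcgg
Its GC content was 70.0%. Only the second listed window of Cldn10 was higher among the members' windows, at 72.0%.

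The same 3 estrus libraries served as the controls of the SVX, SVX_VAS and VAS groups, so these comparisons are not independent of the comparison with INT. Against estrus, 4 of the 10 genes were higher and 3 lower in SVX, where 23.1% of all genes were called higher and 18.4% lower (41.5% in all). In SVX_VAS 4 were higher and 3 lower (22.1% and 16.4% of all genes, 38.5% in all), and in VAS 3 were higher and 2 lower (23.2% and 17.2% of all genes, 40.4% in all). Libraries did not overlap with estrus for 8, 7 and 6 of the 10 genes in SVX, SVX_VAS and VAS, against 70.9%, 67.5% and 55.0% of all genes. The median log2 fold change of the 10 genes was -0.07, 0.32 and -0.21, and that of all genes -0.01, -0.02 and -0.07. Cldn1, Cldn5 and Gja4 were called higher and Cldn7 and Cldn23 lower in all 4 mated groups. The log2 fold changes of Cldn1 in SVX, SVX_VAS and VAS were 1.81, 1.71 and 2.03, and those of Cldn5 were 1.92, 1.72 and 2.10. Gja4 differed from estrus by 2.46, 2.30 and 2.37 in these groups. Cldn7 differed by -2.67, -1.81 and -2.04, and Cldn23 by -1.10, -0.82 and -0.97. Without VAS libraries 2 and 3, edgeR called 3732 genes higher and 2404 lower in VAS against estrus, and the same 5 of the 10 genes were called. Their log2 fold changes were then 1.85 for Cldn1, 1.79 for Cldn5, 2.15 for Gja4, -1.67 for Cldn7 and -1.03 for Cldn23.

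**Figure D2:**
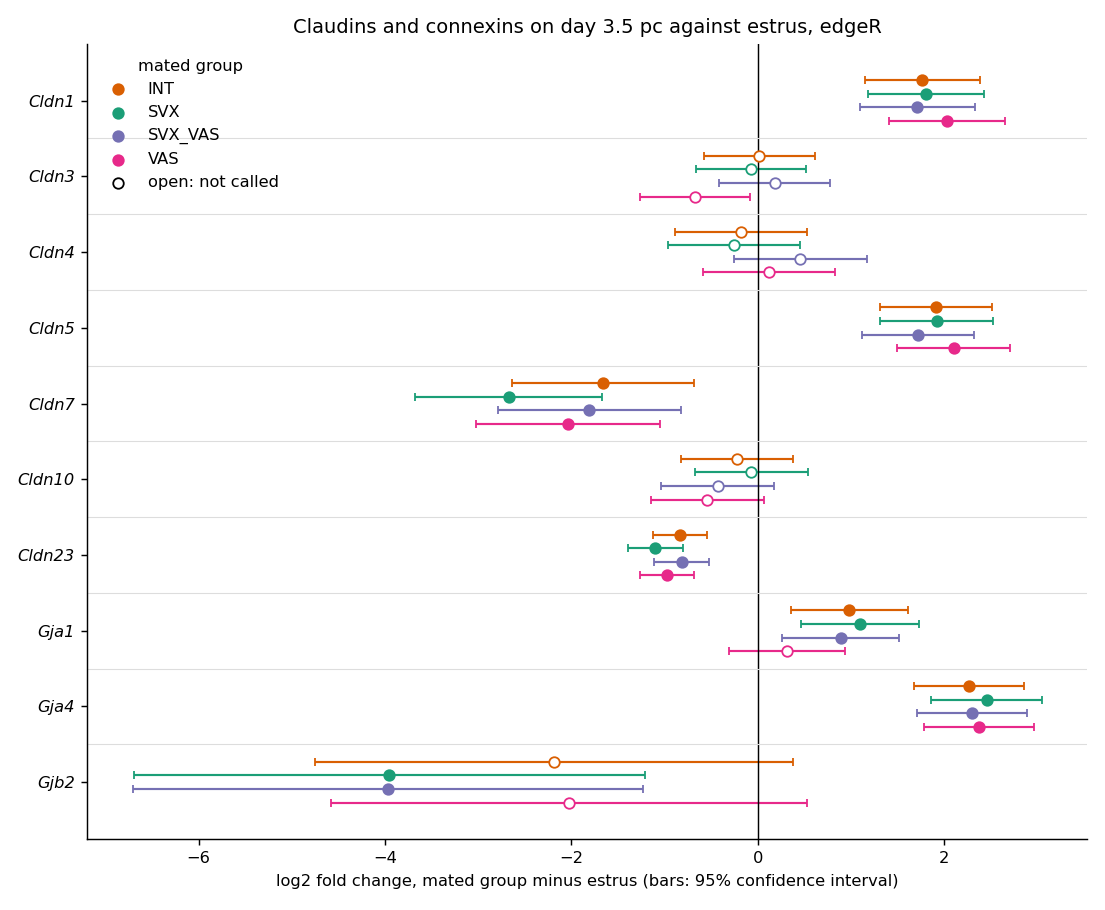
Log2 fold change of each gene in the 4 mated groups against estrus (edgeR, horizontal axis), with bars for the 95% confidence interval and open points for changes that were not called. The bars of Gjb2 are the widest, and those of Cldn3, Cldn4 and Cldn10 span 0 except that of Cldn3 in VAS.

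Gja1 and Gjb2 were the genes whose calls differed between the mated groups, and that a call was made in some groups only does not show a difference between them. Gja1 was called higher in SVX (log2 fold change 1.10, edgeR FDR 0.00480) and SVX_VAS (0.89, FDR 0.0181), the latter not without estrus library 1 (0.77, FDR 0.0808) or 4 (0.83, FDR 0.0628). In VAS it was at 174, 103, 103 and 211 CPM in libraries 1 to 4, a log2 fold change of 0.31 (edgeR FDR 0.367). The low values were those of VAS libraries 2 and 3, and without both the log2 fold change was 0.70 (edgeR FDR 0.0568). Gjb2 was called lower in SVX (log2 fold change -3.95, edgeR FDR 0.0156) and SVX_VAS (-3.97, FDR 0.0163).

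In SVX, Gjb2 was at 48.3, 2.34, 2.25 and 5.48 CPM in libraries 1 to 4, so that library 1 stood above the other three, and without it the log2 fold change was -6.06 (edgeR FDR 0.00208). In SVX_VAS it was at 3.31, 20.3, 2.88 and 31.5 CPM. In VAS it was at 155, 18.6, 42.5 and 5.12 CPM, where library 1 approached the lowest estrus value of 202 CPM and Gjb2 was not called (log2 fold change -2.02, edgeR FDR 0.162). Without VAS library 1 it was called (log2 fold change -3.34, edgeR FDR 0.0352), and limma-voom called it with all libraries (-2.94, FDR 0.0280). Without SVX_VAS library 4 the log2 fold change in SVX_VAS was -4.67 (edgeR FDR 0.0169). The estrogen response list, in which Ltf and C3 are among the classical estrogen-induced secretory genes, also spread widely among mated libraries. Its summed level was 266 to 11700 CPM over the 16 mated libraries and 16808 to 18142 CPM at estrus, and in SVX and VAS it was highest in the library with the highest Gjb2 (786 and 3911 CPM in library 1 of each). In the other mated groups it was not, as the list was highest in INT library 1 (11700 CPM) and SVX_VAS library 2 (11193 CPM), while Gjb2 was highest in INT library 2 and SVX_VAS library 4.

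Cldn3, Cldn4 and Cldn10 were not called in any mated group against estrus in the main edgeR fit. With a 1 CPM filter or a replicate block, edgeR called Cldn3 lower in VAS. Cldn3 in VAS came nearest, at 96.8, 59.4, 58.9 and 156 CPM (log2 fold change -0.67, FDR 0.0504), and the low values were again those of VAS libraries 2 and 3. Without both libraries its log2 fold change was -0.22, and without VAS library 4 it was -1.04 (edgeR FDR 0.00132). Cldn4 was at 33.5, 115, 39.0 and 37.7 CPM in SVX_VAS libraries 1 to 4. Library 2 was the highest, and the log2 fold change against estrus was 0.46 with it and -0.16 without it. Cldn10 was at 22.1 to 59.9 CPM over the 16 mated libraries.

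Among the mated groups themselves, none of the 10 genes was called in SVX, SVX_VAS or VAS against INT, and none of the 17222 genes was called in any of these 3 comparisons with edgeR (0% in each). Libraries of the groups overlapped for all 10 genes in each comparison, while 2.60%, 1.75% and 1.23% of all genes did not overlap. At an unadjusted p under 0.05 there were 749, 339 and 1831 genes. DESeq2 called 3, 2 and 0 genes, and limma-voom 0 and 0 genes in the first 2 comparisons and 19 higher and 1642 lower genes in VAS. In VAS against INT edgeR called 109 genes higher and 465 lower without VAS library 1, and 8 higher and 125 lower without VAS library 4. Cldn3 was among the latter (log2 fold change -1.06, FDR 0.0389). Without VAS library 2 or 3 it called 0 genes, and the 1831 genes at an unadjusted p under 0.05 became 473 or 419, and 146 without both. Those with an unadjusted p under 0.05 included Cldn7 in SVX (log2 fold change -1.01) and, in VAS, Cldn3 (-0.69) and Gja1 (-0.67), with an edgeR FDR of 0.452 or more in each case. The low values of Cldn3 and Gja1 were those of VAS libraries 2 and 3 given above. The 95% confidence intervals of these comparisons were narrow for Cldn23 (-0.54 to 0.01 in SVX, -0.26 to 0.29 in SVX_VAS and -0.41 to 0.14 in VAS) and wide for Gjb2 (-4.24 to 0.71, -4.25 to 0.68 and -2.20 to 2.52).

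Levels were compared between genes as CPM per kb of exon length. At estrus Cldn7 (125 CPM per kb), Cldn3 (117) and Gjb2 (93.7) were the most abundant, with Cldn7 and Cldn3 overlapping in their libraries and Gjb2 below both. Gja1 (38.2) and Cldn23 (32.7) followed and overlapped, then Cldn4 (22.6) and Cldn10 (16.0). Cldn1 (2.21), Cldn5 (2.07) and Gja4 (1.90) were lowest and overlapped. In INT the order began with Cldn3 (118 CPM per kb), Gja1 (75.5), Cldn7 (39.5) and Gjb2 (20.6), and each of the 10 genes overlapped its next neighbour in that order.

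The 7 claudins summed to 317 ± 25.9 CPM per kb at estrus (SD, n = 3) and to 225 ± 26.3 CPM per kb in INT (SD, n = 4). Cldn7 made up 39.2% ± 3.12 of that sum at estrus (SD, n = 3) and 17.7% ± 11.01 in INT (SD, n = 4). Cldn3 made up 36.9% ± 0.647 and 52.1% ± 10.5, so that Cldn7 and Cldn3 had near equal shares at estrus and Cldn3 had the largest mean share in INT. Shares of Cldn1 (0.712% to 3.38%) and Cldn5 (0.662% to 3.48%) were small in both groups. The ratio of Cldn3 to its neighbour Cldn4, per length, was 4.81 to 5.39 at estrus and 5.19 to 7.01 in INT, and it ranged from 1.37 to 6.16 in VAS and from 2.22 to 7.34 in SVX_VAS.

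**Figure D3:**
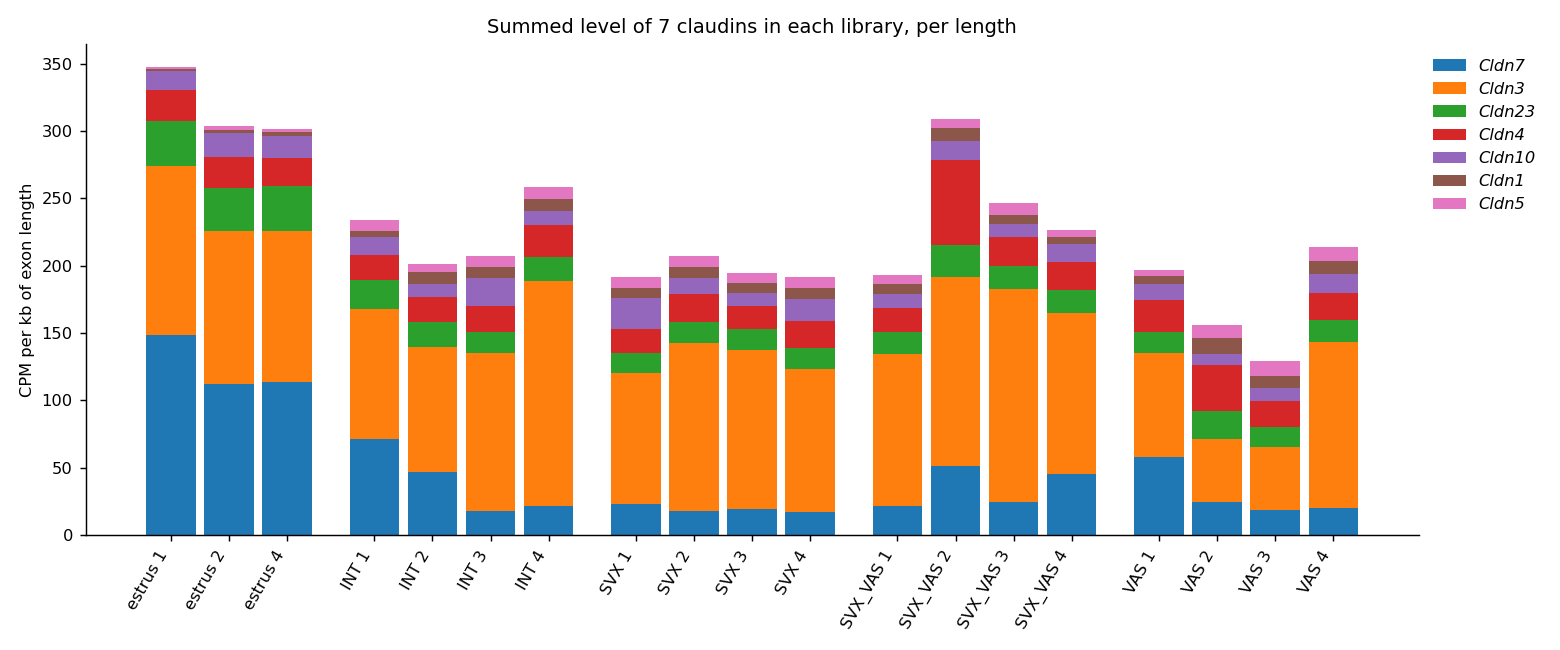
Stacked CPM per kb of exon length of the 7 claudins in each library, with libraries numbered as in the labels. The Cldn7 segment is large at estrus and smaller in mated libraries, the Cldn3 segment is smallest in VAS libraries 2 and 3, and SVX_VAS library 2 has the largest Cldn4 segment.

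Since markers of epithelium fell and those of endothelium and stroma rose between estrus and INT, each gene was also set beside the markers of the cell type it is usually found in, as its log2 CPM minus the mean log2 CPM of that list. Relative to the 10 epithelium markers, Cldn7 differed by 0.04 between INT and estrus, with overlapping libraries (exact permutation test, two-sided p = 0.857). The other epithelial claudins lay higher relative to the list in every INT library than in any estrus library, with differences of mean as follows: Cldn1 3.66, Cldn3 1.89, Cldn4 1.73, Cldn10 1.63 and Cldn23 1.07 on the log2 scale. For these 5 genes the values were highest in INT libraries 3 and 4, whose epithelium markers were lowest (753 and 1062 CPM in sum). The list itself fell (median log2 fold change -1.48), so a gene that did not change also lies higher relative to it. Cldn3, Cldn4 and Cldn10 were not called, and the share of all genes that separate in this way was not computed. Each of the 5 had the smallest p that 3 libraries against 4 allow in the exact test (35 splits, p = 0.0571, adjusted p = 0.114 over the 10 genes), so 0.05 could not be reached. Gjb2 differed by -1.06 relative to the same list and overlapped (exact p = 0.457), and without INT library 4, its lowest, the difference was -0.23.

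Relative to the 10 endothelium markers, Cldn5 differed by 0.11 (exact permutation test, p = 0.514) and Gja4 by 0.43 (p = 0.114), and both overlapped between the groups. Relative to the 10 stroma markers, Gja1 differed by -0.41 (exact p = 0.229) and overlapped.

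**Figure D4:**
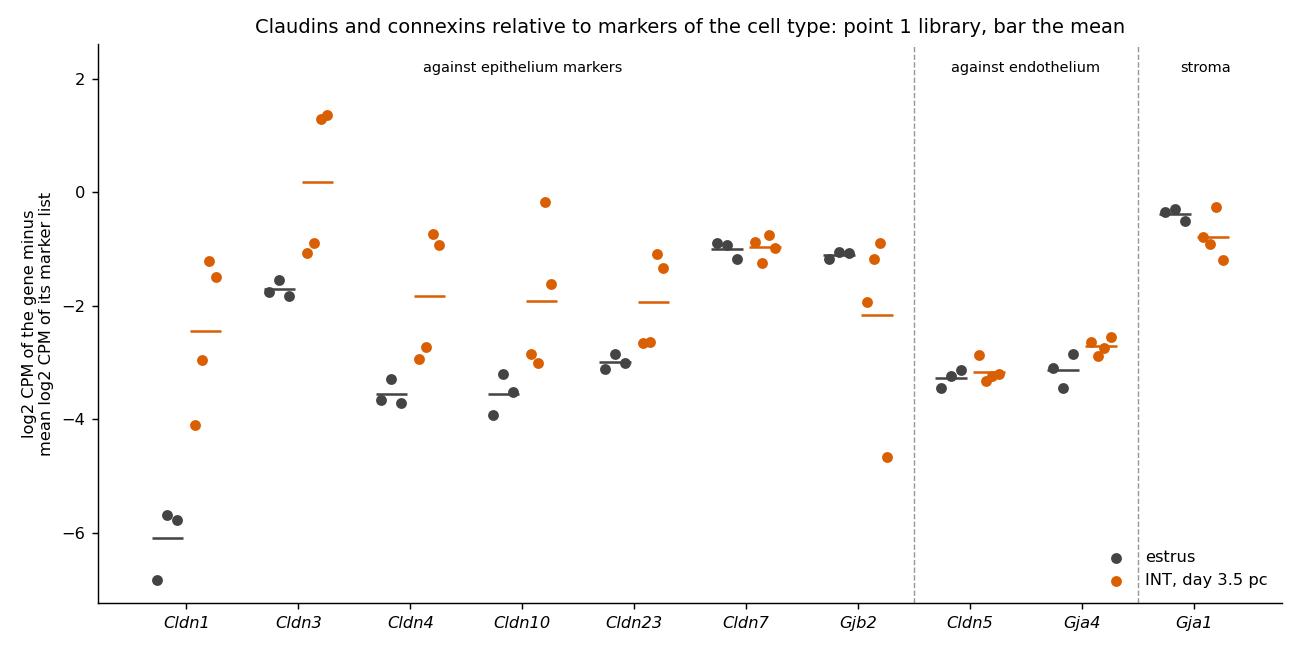
Log2 CPM of each gene minus the mean log2 CPM of its marker list (vertical axis) in estrus and INT libraries, with points for libraries and bars for means. Cldn1, Cldn3, Cldn4, Cldn10 and Cldn23 lie higher in every INT library than in any estrus library, while Cldn7, Gjb2, Cldn5, Gja4 and Gja1 overlap. The epithelium list itself fell in INT.

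The 16 mated libraries also differed among themselves. Over them the 10 genes were set against the summed CPM of 10 marker lists on the log2 scale, and p-values were adjusted over all 100 pairs, of which 25 had an adjusted permutation p for r under 0.05. The pairs named here were chosen after the data were seen. Cldn7 followed the epithelium markers (Pearson r = 0.97, n = 16, permutation p = 1e-05, the smallest that 100000 permutations give, adjusted p = 0.000500; Spearman rho = 0.91, adjusted permutation p = 0.00100). Without the 2 libraries farthest from the median r was 0.94, and without VAS libraries 2 and 3 it was 0.97. Cldn23 followed them less closely (r = 0.62, n = 16, adjusted permutation p = 0.0399; rho = 0.65, adjusted p = 0.0571). For Cldn1, Cldn3, Cldn4 and Cldn10 r with the epithelium markers was -0.42, 0.03, 0.23 and 0.02, with adjusted permutation p of 0.218 to 0.979.

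Gjb2 was related to the estrogen response list (r = 0.73, n = 16, adjusted permutation p = 0.0154; rho = 0.67, adjusted p = 0.0508), to the epithelium markers (r = 0.64, adjusted permutation p = 0.0396; rho = 0.50, adjusted p = 0.164) and, with the opposite sign, to the endothelium markers (r = -0.83, adjusted permutation p = 0.00314; rho = -0.74, adjusted p = 0.0231). Cldn7 was related to the estrogen response list too (r = 0.92, n = 16, adjusted permutation p = 0.000500; rho = 0.80, adjusted p = 0.0103). Without the 2 farthest libraries r was 0.82 for Gjb2 and 0.88 for Cldn7 with the estrogen response list, 0.46 for Gjb2 and 0.67 for Cldn23 with the epithelium markers, and -0.85 for Gjb2 with the endothelium markers. INT library 1 had both the highest estrogen response list and the highest epithelium markers (11700 and 3090 CPM), and which list a gene follows was not tested.

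Gja4 was related to the endothelium markers (r = 0.67, n = 16, adjusted permutation p = 0.0224; rho = 0.49, adjusted p = 0.165), with r of 0.58 without the 2 farthest libraries and 0.92 in the 14 libraries without VAS libraries 2 and 3. For Cldn5 r was 0.33 over the 16 libraries (adjusted permutation p = 0.365; rho = 0.14, adjusted p = 0.781) and 0.71 over those 14 (adjusted permutation p = 0.0289; rho = 0.48, adjusted p = 0.282). Stroma markers of VAS libraries 2 and 3 lay far below the rest (1946 and 2082 CPM against 6445 CPM or more), so the relation of Gja1 to stroma is given over the other 14 alone, where r was 0.15 (permutation p = 0.610; rho = 0.07, permutation p = 0.808).

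The gland list (Foxa2, Sox9 and 5 secretory genes of uterine glands) split the mated libraries too, and Cldn10 and Gja1 moved with that split. Its summed level was 485 to 555 CPM in INT library 3 and SVX libraries 1 and 4 and 84.7 to 239.9 CPM in the other 13. Those 3 libraries had the highest Cldn10 of the mated libraries (53.2, 59.9 and 43.1 CPM) and the highest Gja1 (372, 340 and 253 CPM). Within INT the secretory genes Prss28 and Prss29 had the largest SD of the list (29.7 ± 52.1 and 50.9 ± 89.4 CPM, n = 4). Foxa2 was at 14.4 ± 5.65 CPM and Sox9 at 25.4 ± 9.03 CPM (SD, n = 4). Which genes of the list made the split was not tested. No r is given across the split. Within the other 13 libraries r was 0.48 for Cldn10 (permutation p = 0.0994; rho = 0.42, permutation p = 0.156) and 0.34 for Gja1 (permutation p = 0.260; rho = 0.60, permutation p = 0.0323), unadjusted.

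The other pairs with an adjusted permutation p for r under 0.05 each joined a gene to a list of another cell type or to a hormone response list. The endothelial genes ran against the epithelium markers, with r of -0.86 for Gja4 (n = 16, adjusted permutation p = 0.00220; rho = -0.68, adjusted p = 0.0453) and -0.70 for Cldn5 (adjusted permutation p = 0.0164; rho = -0.64, adjusted p = 0.0626). Cldn7 ran against the endothelium markers (r = -0.69, adjusted permutation p = 0.0190; rho = -0.66, adjusted p = 0.0508), and Cldn3 ran with them (r = 0.68, adjusted permutation p = 0.0190; rho = 0.59, adjusted p = 0.102). With the estrogen response list r was 0.73 for Cldn23 (adjusted permutation p = 0.0154; rho = 0.54, adjusted p = 0.124; r = 0.41 without the 2 farthest libraries) and -0.77 for Gja4 (adjusted permutation p = 0.00944; rho = -0.55, adjusted p = 0.113).

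With the progesterone response list r was 0.68 for Cldn3, 0.66 for Gja4, 0.63 for Gja1, -0.66 for Cldn7 and -0.66 for Gjb2 (n = 16, adjusted permutation p of 0.0189 to 0.0344), and no adjusted p for rho was under 0.0793. That list held Areg, Ihh, Calca, Il13ra2, Cyp26a1, Fst, Acod1 and Hsd11b2. Hsd11b2 had its highest mean at estrus and in INT (173 and 163 CPM) and was not called (log2 fold change -0.09, edgeR FDR 0.834). The other 7 genes were called higher in INT. With the blastocyst list, of which 2 of 7 genes passed the filter and whose sum was 7.28 to 15.4 CPM in the mated libraries, r was -0.88 for Cldn7, 0.78 for Gja4 and 0.77 for Cldn5 (adjusted permutation p of 0.000667 to 0.00362). The 2 genes that passed were Eomes and Gata3, while Cdx2 and Pou5f1 reached at most 1 count and Nanog 2. Tfap2c and Sox2 did not pass either, but reached 81 and 32 counts, and all 7 genes are in the sum. At estrus, in unmated females, the list summed to 2.89 to 5.24 CPM, so its level is not a measure of embryos alone. Without VAS libraries 2 and 3 the r of Cldn3 was 0.64 with the endothelium markers and 0.61 with the progesterone response list (adjusted permutation p = 0.0599 and 0.0850), and that of Gja1 with the latter was 0.49 (adjusted p = 0.207). In the same 14 libraries r with the progesterone response list was 0.93 for Gja4, 0.78 for Cldn5, -0.87 for Cldn7 and -0.67 for Gjb2. Their adjusted permutation p was 0.000333, 0.00869, 0.00200 and 0.0426, and for rho it was 0.00571, 0.00571, 0.0425 and 0.316. The remaining pair, Cldn3 with the stroma markers, rested on VAS libraries 2 and 3, and without them r was -0.47 (adjusted permutation p = 0.222). The lists shared libraries and moved together or against one another, so these pairs are not independent of each other.

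**Figure D5:**
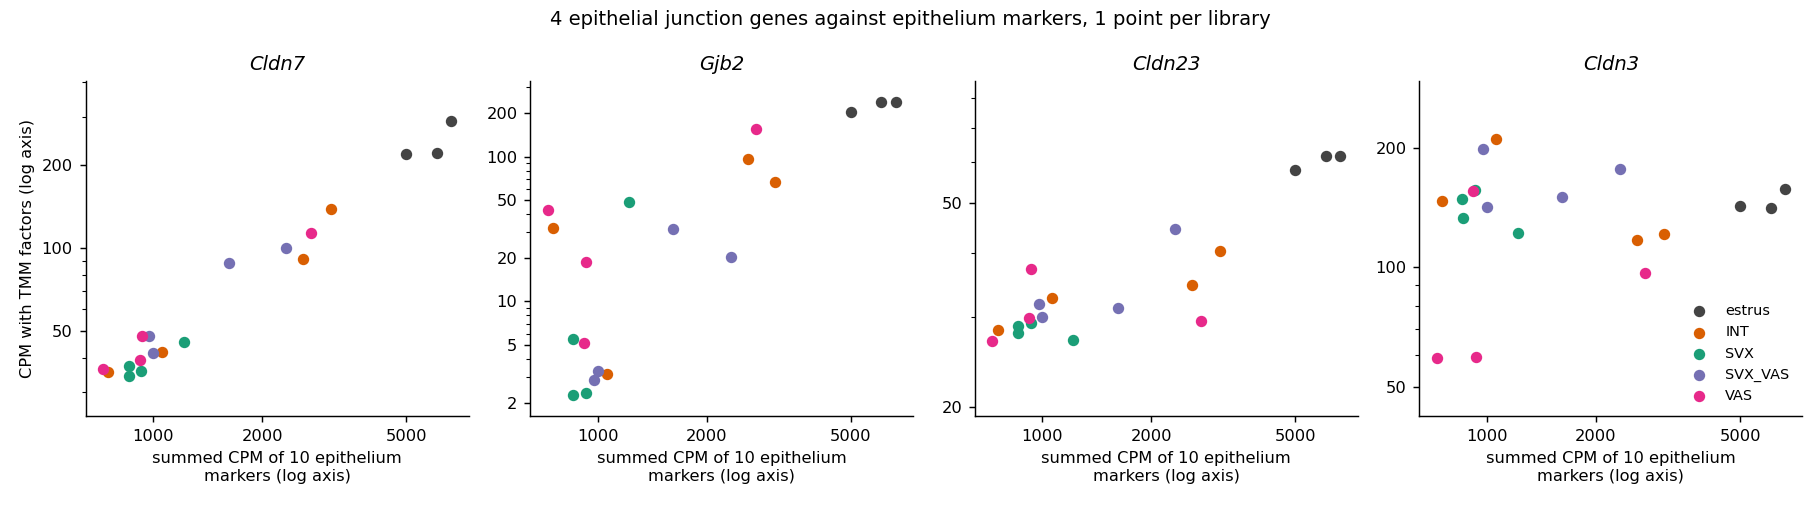
CPM with TMM factors of Cldn7, Gjb2, Cldn23 and Cldn3 (vertical log axes) against the summed CPM of the 10 epithelium markers (horizontal log axis), 1 point per library, coloured by group. Points of Cldn7 lie along a line, Gjb2 spreads widely at low marker levels, and Cldn3 is at like levels at estrus and in INT while VAS libraries 2 and 3 lie lowest.

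Other genes of these families were few in this tissue. From a list of 22 other claudins, 21 were in the counts and 5 passed the filter, among which Cldn8, a barrier claudin, and Cldn34c1 were called higher in INT. Cldn8 rose from 3.20 ± 1.01 (SD, n = 3) to 11.6 ± 2.70 CPM (SD, n = 4; log2 fold change 1.86, edgeR FDR 1.62e-05), and Cldn34c1 from 0.876 ± 0.196 to 3.63 ± 0.930 CPM (log2 fold change 2.04, edgeR FDR 4.60e-05). From 17 other connexins 5 passed the filter, and among them Gjc1, a connexin of vascular and other muscle, was called higher and Gjb1, an epithelial connexin, was called lower. Gjc1 rose from 14.6 to 47.9 CPM (log2 fold change 1.71), while Gjb1 fell from 10.3 to 2.85 CPM (-1.85). Of the 3 pannexins, which form channels in single membranes, Panx1 passed the filter and was not called (log2 fold change 0.20).

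Among 25 tested tight junction partners of the claudins, 5 were higher and 11 lower in INT, and 9 were not called, where 20.9% of all genes were higher and 12.7% lower, with a median log2 fold change of -0.55 against -0.01 over all genes. The largest rise was that of Jam2, a junctional adhesion molecule of endothelium, from 38.0 ± 6.49 (SD, n = 3) to 306 ± 120 CPM (SD, n = 4; log2 fold change 3.01, edgeR FDR 4.67e-05). The largest fall was that of Tjp3, a scaffold that binds claudins at epithelial junctions, from 269 ± 3.92 to 71.1 ± 54.1 CPM (log2 fold change -1.92, edgeR FDR 0.0183). Ocln, the strand protein occludin, fell from 89.2 to 98.3 CPM at estrus to 44.6 to 60.6 CPM in INT (log2 fold change -0.78), and the tricellular protein Marveld2 from 54.8 to 25.6 CPM (-1.10). The scaffold Tjp1 was at 316 and 344 CPM and was not called. These falls moved with the epithelium markers given above, and their part in these falls was not tested.

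For each gene the 2 genes with the most similar log2 CPM over the 19 libraries were found, as a description. They were Ptgfr and Glrb for Cldn1 (r = 0.96 each), Hexim1 and Wbscr25 for Cldn3 (0.95 and 0.94), and Ptgs2 and Dip2a for Cldn4 (0.83 and 0.79). For Cldn5 they were Syt7 and Lfng (0.98 each), for Cldn7 Clint1 and Gm43055 (0.99 and 0.98), for Cldn10 Gmpr and Adi1 (0.84 and 0.80), and for Cldn23 AU040320 and Dcaf11 (0.98 each). Among the connexins they were Sav1 and Lamc1 for Gja1 (0.96 and 0.94), Zfp366 and Gm14230 for Gja4 (0.99 each), and Hmgcll1 and Fam20a for Gjb2 (0.97 and 0.96). These values share the libraries, and the contrast of estrus with mated libraries enters all of them. Wbscr25 is the antisense gene whose exons overlap Cldn3. Without VAS libraries 2 and 3 the values for Cldn3 were 0.80 with Hexim1 and 0.81 with Wbscr25, and the other values lay between 0.77 and 0.99.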

How the data were processed

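Raw counts per gene, not normalized, were deposited by the authors, from paired-end reads of stranded total RNA libraries aligned to GRCm38 with STAR and assigned to genes with featureCounts (tools and build from the submitters' processing notes; versions and strand setting not given in the sources used here). Of 49089 genes, 48349 had a symbol. Identical libraries were not found (0 pairs). After a filter of 3 CPM in 3 libraries, 17222 genes were kept. The test was the quasi-likelihood test of edgeR 4.0.16 in R 4.3.3, fitted to the 5 groups together with TMM scaling and no replicate block, using Benjamini-Hochberg FDR of 0.05 or less over all genes tested and a change of 1.5-fold or more. CPM use the TMM factors, and log2 CPM a prior count of 2. Values relative to marker lists were tested by exact two-sided permutation of 3 against 4 libraries. The genes and lists were chosen with earlier results of these data known. Named were the 10 genes, called genes of the other claudins, connexins and pannexins, the called gene with the largest rise and fall of the tight junction list, defining markers, and the 2 genes most alike each member. Some genes that this rule names are not reported here. Cldn2, Cldn3's antisense gene, Ocln, Marveld2, Tjp1, Malat1, C3, Col3a1, Sox17, Hsd11b2, Prss28, Prss29, Tfap2c and Sox2 were named after their values were seen. On simulated data of INT against estrus with 17222 genes, the fit found 53 of 100 genes changed 2-fold and 79 of 100 changed 4-fold, with 2 false calls. Only these genes were changed there, while 33.6% of genes were called in the real comparison. The rates found in simulation therefore need not hold in it. Alternatives were RLE and upper quartile scaling, DESeq2 1.42.0, limma-voom (limma 3.58.1), glmTreat at 1.5-fold, no filter, a filter at 1 CPM, only the 2 groups compared, a replicate block and each library left out. VAS libraries 2 and 3 were left out together as an alternative chosen after the data were seen. Figures were drawn with Python 3.11.15 and matplotlib 3.10.9.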

Additional observations from a re-analysis of the deposited data

Results flagged for a closer look

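Within groups of 4 libraries, the gap of the highest or lowest library to its nearest neighbour was set against the range of the group for the 10 genes, on the log2 scale. In 4 of 40 gene and group pairs it passed the 95% critical value of Dixon's test, where chance gives about 2. Cldn1 was at 14.7 CPM in INT library 1, below the other INT libraries (26.0 to 29.1 CPM). Cldn4 was at 115 CPM in SVX_VAS library 2, above the other libraries of that group (33.5 to 39.0 CPM), and in the same library Cldn23 was at 44.4 CPM against 29.9 to 31.8 CPM in the others. That library also had the highest summed epithelium markers (2331 CPM) and estrogen response list (11193 CPM) of its group, and their part in these values was not tested. Cldn5 was at 5.82 CPM in VAS library 1, below the other VAS libraries (14.1 to 15.9 CPM). Summed endothelium markers were lowest in that library too, at 792 CPM, and its part in the value was not tested.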

How the results depend on the processing

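Of the members' log2 fold changes under the alternatives, 1154 kept direction and call, 9 gained a call, 8 lost one and 49 changed sign, all of the latter values that were not called. With limma-voom 4 members were called lower in VAS against estrus (2 with edgeR), and with glmTreat 1 was lower in INT (2 without it), where Cldn23 (FDR 0.0620) and Gja1 (FDR 0.127) were not called. With each library left out, 0 to 1 members were lower in VAS against INT, the 1 being Cldn3 without VAS library 4 (-1.06, FDR 0.0389). For Cldn7 relative to epithelium markers, the difference of INT from estrus was 0.039 in the main setting. Dropping single libraries gave values from -0.047 to 0.13. Among the other alternatives the difference reached 0.39. In SVX_VAS glmTreat did not call Cldn23 (FDR 0.0634) or Gja1 (FDR 0.175). Cldn3 in VAS against estrus was called with DESeq2 (FDR 0.0436), limma-voom (FDR 0.0231) and the 1 CPM filter (FDR 0.0414). The cause of these changes was not tested.

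Sign changes were as follows. Upper quartile scaling gave 0.10 for Cldn3 and 0.10 for Cldn10 in SVX against estrus. For Cldn3 in INT against estrus, limma-voom gave -0.022, no filter -0.011 and the 1 CPM filter -0.032, and for Cldn5 in SVX against INT no filter gave -0.00090. Without VAS libraries 2 and 3, Cldn4 in VAS against estrus was -0.050, Cldn5 and Gja4 in VAS against INT were -0.12 and -0.12, and correlations with epithelium markers were -0.49 for Cldn3 and -0.13 for Cldn10. With each library left out, values against estrus ran from -0.20 to 0.12 for Cldn3 in INT, -0.34 to 0.10 for Cldn10 in SVX, -0.16 to 0.64 for Cldn4 in SVX_VAS and -0.067 to 0.23 for Cldn4 in VAS. Against INT they ran in SVX from -0.14 to 0.14 for Cldn1, -0.19 to 0.13 for Cldn3, -0.13 to 0.020 for Cldn4, -0.10 to 0.078 for Cldn5, -0.12 to 0.45 for Cldn10 and -0.052 to 0.46 for Gja1. In SVX_VAS they ran from -0.24 to 0.10 for Cldn1, -0.38 to 0.30 for Cldn7, -0.32 to 0.074 for Cldn10, -0.13 to 0.11 for Cldn23, -0.22 to 0.24 for Gja1 and -0.078 to 0.17 for Gja4. In VAS they ran from -0.90 to 0.075 for Cldn7, -0.029 to 0.31 for Gja4 and -1.16 to 0.71 for Gjb2.

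Same-numbered libraries did not deviate together (36 pairs, r from -0.69 to 0.58, 15 over 0.1), so the numbers were not taken to pair them. With the replicate block, genes called in INT against estrus went from 3595 to 3477 higher and from 2185 to 2117 lower. In that block fit Cldn3 was -0.012 in INT against estrus and was called in VAS against estrus (-0.72, FDR 0.0426), Cldn7 was 0.045 in SVX_VAS and Gjb2 -0.14 in VAS against INT, and no other member call changed. Upper quartile scaling moved the median of all genes to between 0.12 and 0.16 in the comparisons with estrus, and the share of higher genes among calls from 62.2% to 71.2% in INT, 55.6% to 65.5% in SVX, 57.5% to 67.0% in SVX_VAS and 57.4% to 70.5% in VAS. Under it the members called against estrus were the same genes as with TMM scaling. With limma-voom that share was 44.5% in VAS (4852 lower against 2967 with edgeR), and with glmTreat it was 74.5% in INT and 67.8% in VAS. With glmTreat 2484 genes were higher and 848 lower in INT, 3037 and 2017 in SVX, 2738 and 1476 in SVX_VAS and 2928 and 1390 in VAS, against 3595 and 2185, 3976 and 3171, 3814 and 2822, and 3998 and 2967.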

Other observations

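A further epithelial junction gene, picked after its values were seen, spread widely among mated libraries, as Gjb2 did. Cldn2, a claudin that forms cation channels in leaky epithelia, was at 21.9 to 28.7 CPM at estrus and at 18.3, 6.45, 2.38 and 1.32 CPM in INT libraries 1 to 4. In SVX it was at 12.1 CPM in library 1 and at 0.391 to 1.16 CPM in the others, in SVX_VAS at 13.4 CPM in library 4 and at 0.912 to 0.992 CPM in the others, and in VAS at 8.29, 1.85, 11.9 and 1.68 CPM. The libraries with the highest Gjb2 in SVX and in SVX_VAS (libraries 1 and 4) were also the highest of their groups for Cldn2. In the other 2 mated groups the highest libraries differed, with Gjb2 highest in INT library 2 and VAS library 1 and Cldn2 in INT library 1 and VAS library 3. Cldn2 was not called in INT against estrus with edgeR (log2 fold change -1.83, FDR 0.230).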
